A study of Mus musculus with 6 samples.

Results

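Small nucleolar RNAs (snoRNAs) and small Cajal body RNAs (scaRNAs) were followed in the livers of fasted *Pak4* liver-specific knockout (LKO) and wild-type (WT) mice. The members were all rows of the deposited gene table whose symbol begins with *Snora*, *Snord* or *Scarna* and a number, with no measured value used to choose them. The table held 123 such rows among 45777 genes. Of these, 76 were *Snord* rows (box C/D snoRNAs), 38 were *Snora* rows (box H/ACA snoRNAs) and 9 were *Scarna* rows (scaRNAs).

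A snoRNA works as a guide. Box C/D RNAs pair with a target RNA and direct ribose methylation by fibrillarin, box H/ACA RNAs direct the conversion of uridine to pseudouridine by dyskerin, and scaRNAs do the same for spliceosomal RNAs in the Cajal body. A few snoRNAs, such as U14 (*Snord14*), U17 (*Snora73*), U22 (*Snord22*) and U8 (*Snord118*), are needed for the cleavage of pre-rRNA. Most mammalian snoRNAs are trimmed out of the introns of a host gene after splicing and carry no poly(A) tail.

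The study compared 3 WT with 3 LKO mice, with 1 RNA-seq library from the liver of each mouse. All 6 were male C57BL/6 mice aged 8 weeks and fasted for 24 h. WT mice carried *Pak4* flox/flox alleles without Cre, and LKO mice carried the same alleles with Alb-Cre, a Cre driven by the albumin promoter and hence active in hepatocytes. The RNA came from whole tissue, so other liver cells of LKO mice kept *Pak4*, and a change in the number of a cell type cannot be told apart from a change in RNA per cell. The replicates were separate mice.

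*Pak4* had 268, 210 and 271 counts in WT livers and 85, 52 and 149 in LKO livers. After scaling by the trimmed mean of M values (TMM) this was 3.63 ± 0.445 CPM (counts adjusted for library size) in WT and 2.21 ± 0.900 in LKO (mean ± SD, n = 3), with LKO mouse 3 overlapping the WT range (log2 fold change −0.71, edgeR quasi-likelihood test, Benjamini-Hochberg adjusted p = 0.10, reaching 0.015 without LKO mouse 3). Total counts ranged from 45934632 to 55205564 over WT livers and from 53936281 to 59576437 over LKO livers. The TMM factors did not overlap, at 1.28 to 1.43 in WT and 0.639 to 0.816 in LKO. The summed level of 6 hepatocyte markers was 40400 to 44100 CPM in WT and 104000 to 128000 CPM in LKO, with 3 markers called higher and 1 lower. Sums of Kupffer cell, endothelial, stellate, neutrophil and red cell markers were also higher in every LKO mouse, although of 4 red cell markers 1 was called higher and 1 lower. Sums of cholangiocyte, B cell and T or NK cell markers overlapped between genotypes, with 1 T or NK cell marker called lower. No marker was at 0 in all mice, and the part of cell composition in the results on snoRNAs was not tested. The labels name a stranded mRNA kit and the methods a stranded total RNA kit with rRNA removal.

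The sequences of the snoRNAs on which the results turn are given here from GENCODE M21 on GRCm38, all on the transcribed strand. The first pair are *Snora73a* (chr4:132352775-132352979, minus strand) and *Snora73b* (chr4:132352322-132352526, minus strand), which held most H/ACA counts. Capitals mark the ACA box near the 3′ end.
Snora73a: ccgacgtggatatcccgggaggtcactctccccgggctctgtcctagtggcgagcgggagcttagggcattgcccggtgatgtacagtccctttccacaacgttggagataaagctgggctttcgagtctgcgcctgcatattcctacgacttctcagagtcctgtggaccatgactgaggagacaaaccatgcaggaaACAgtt
Snora73b: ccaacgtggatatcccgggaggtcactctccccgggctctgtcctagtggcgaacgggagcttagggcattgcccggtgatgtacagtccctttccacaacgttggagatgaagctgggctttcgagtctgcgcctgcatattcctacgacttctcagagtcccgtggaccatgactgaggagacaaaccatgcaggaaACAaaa
The copies were identical at 198 of 205 aligned bases (96.6%), so reads could be shared between them. The next 3 are the U14 copies of the *Hspa8* gene, *Snord14c* (chr9:40803583-40803668), *Snord14d* (chr9:40803995-40804080) and *Snord14e* (chr9:40804748-40804837), all on the plus strand, which had lower counts in LKO mice. Here capitals mark the first TGATGA in the opening 26 bases, which holds the C box, and the last CTGA in the closing 20 bases, the D box.
Snord14c: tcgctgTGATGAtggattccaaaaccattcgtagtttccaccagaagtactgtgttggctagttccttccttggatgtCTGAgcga
Snord14d: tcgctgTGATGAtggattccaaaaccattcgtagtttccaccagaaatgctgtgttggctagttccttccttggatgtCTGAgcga
Snord14e: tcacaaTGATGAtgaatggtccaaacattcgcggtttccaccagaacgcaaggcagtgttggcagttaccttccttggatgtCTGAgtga
*Snord14c* and *Snord14d* were identical at 84 of 86 aligned bases (97.7%), and each shared 79.6% with *Snord14e*. *Snord15a* (chr7:99482785-99482932) and *Snord15b* (chr7:99479563-99479707) lie in the *Rps3* gene and *Snord17* (chr2:144265979-144266216) in the *Snx5* gene, all on the minus strand. They are shown, with the same boxes in capitals, as C/D RNAs that were higher in LKO mice and longer than the U14 copies.
Snord15a: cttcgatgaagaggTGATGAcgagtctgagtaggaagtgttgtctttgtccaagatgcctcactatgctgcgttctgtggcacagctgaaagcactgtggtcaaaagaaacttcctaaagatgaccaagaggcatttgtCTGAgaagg
Snord15b: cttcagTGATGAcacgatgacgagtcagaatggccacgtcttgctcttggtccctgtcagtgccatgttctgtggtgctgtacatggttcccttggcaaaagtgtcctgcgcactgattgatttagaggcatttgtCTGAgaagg
Snord17: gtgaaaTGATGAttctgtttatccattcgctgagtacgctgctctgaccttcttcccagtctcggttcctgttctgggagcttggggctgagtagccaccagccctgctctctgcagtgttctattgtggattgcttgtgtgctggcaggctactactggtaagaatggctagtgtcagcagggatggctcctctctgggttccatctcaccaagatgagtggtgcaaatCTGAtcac
The 2 *Snord15* RNAs shared 66.0% of aligned bases. Of the scaRNAs, *Scarna13* (chr12:105031075-105031349, minus strand) held the most counts and ends as an H/ACA RNA, while *Scarna9* (chr9:15326264-15326333, minus strand) carries C and D boxes and was the scaRNA with lower counts in LKO mice.
Scarna13: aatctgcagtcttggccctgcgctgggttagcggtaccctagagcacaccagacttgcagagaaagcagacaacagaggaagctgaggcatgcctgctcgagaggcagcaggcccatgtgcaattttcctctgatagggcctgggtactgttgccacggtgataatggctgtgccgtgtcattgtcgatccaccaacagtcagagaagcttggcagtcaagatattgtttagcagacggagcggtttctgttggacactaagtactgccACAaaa
Scarna9: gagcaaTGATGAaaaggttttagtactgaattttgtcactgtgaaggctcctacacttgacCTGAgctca
These letters follow the class names over the whole set. TGATGA was found in the opening 26 bases of 48 of 76 C/D RNAs (63.2%) and 0 of 38 H/ACA RNAs, CTGA in the closing 20 bases of 74 C/D RNAs (97.4%) and 4 H/ACA RNAs (10.5%), and ACA in the last 8 bases of 36 H/ACA RNAs (94.7%) and 7 C/D RNAs (9.21%). Only the transcribed strand was searched, and a match is a description of the letters.

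Across the 123 members, 22 were called higher in LKO livers, a share near that of all genes tested, and 2 were called lower. The test took in 18636 genes with at most 1 zero count over the 6 mice, 113 members among them. At an adjusted p under 0.05 in edgeR's quasi-likelihood test, 22 members were higher (19.5%, against 19.6% of all genes tested), 2 were lower (1.77%, against 20.5% of all genes) and 89 were not called. The share higher was that of the whole table. The median log2 fold change was 0.54 over the members and −0.04 over all genes tested. CPM of the genotypes did not overlap, with LKO above, for 39 members (34.5%, against 26.1% of all genes), and did not overlap, with LKO below, for 10 (8.85%, against 27.9%). These figures include 7 members with a count of 1 in every mouse, whose CPM differ through library scaling alone. Without such rows, LKO was above for 32 of 106 members (30.2%, against 26.0% of the other genes) and below for 10 (9.43%, against 28.0%), and the median of the members was 0.38.

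Low counts limited most of the set. A mean under 10 counts was found for 71 members, and 12 had a mean of at least 100. Of the 71, 61 were tested and 0 called by edgeR's quasi-likelihood test (1 at an unadjusted p under 0.05), 0 were called by DESeq2 and 30 were lower by limma on log2(TPM + 1). In 7 tested members, *Snora19*, *Snora24*, *Snora47*, *Snord1a*, *Snord45c*, *Snord7* and *Snord91a*, every mouse had a count of 1 beside an FPKM of at most 0.227, which corresponds to at most 0.669 reads. These counts are fractions rounded up, and a fold change between them has no content. The zero filter left out 10 members, and *Snora35*, *Snord116l1* and *Snord116l2*, the last 2 from the *Snord116* repeat cluster, were at 0 in all mice. All 22 members called higher and both called lower were among the 52 with a mean of at least 10 counts over all 6 mice, where 21.2% of genes were higher and 23.1% lower. That mean does not stand apart from the outcome, since 5 members, 4 of them called higher (*Snora21*, *Snora26*, *Snord118* and *Snord15a*), reached it only through their LKO counts, and 7 members, 1 of them called lower (*Scarna9*), only through their WT counts. No share over these 52 is therefore read as a result. Over the whole table, 183 of 2238 tested genes with a mean under 10 counts were higher (8.18%) and 23 lower (1.03%).

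For H/ACA, 10 of 36 tested members were higher (27.8%) and 0 lower (median log2 fold change 0.64). For C/D, 7 of 68 were higher (10.3%) and 1 lower (1.47%, median 0.13). For the scaRNAs, 5 of 9 were higher (55.6%) and 1 lower (11.1%, median 1.25). Over all genes tested, 19.6% were higher and 20.5% lower, so the C/D share higher lay below that of the table. Without the rows with a count of 1 in every mouse, 3 of them H/ACA and 4 C/D, the medians were 0.74 for H/ACA and 0.11 for C/D. Members with a mean of at least 10 counts were 26 H/ACA, 19 C/D and 7 scaRNA rows. The difference between classes was not tested, since members are not replicates of a condition.

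The summed raw counts of H/ACA rows were 2767, 2943 and 2836 in WT livers and 14151, 9977 and 18204 in LKO livers. The scaRNA rows summed to 2565, 2515 and 2702 counts in WT and to 8999, 10899 and 11415 in LKO. The C/D rows summed to 1049, 1300 and 1134 counts in WT and to 2129, 1330 and 2631 in LKO. Every LKO mouse thus stood above every WT mouse in all 3 classes, by a wide margin for H/ACA and scaRNA rows and by a narrow one for C/D rows in LKO mouse 2. As a share of all counts, the C/D rows overlapped between genotypes (0.00190% to 0.00283% in WT, 0.00243% to 0.00442% in LKO). In summed TPM they were lower in every LKO mouse (302, 469 and 347 against 268, 173 and 283), whereas H/ACA rows were higher in TPM as well (401, 531 and 435 against 1210, 804 and 1520).

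Within a library, a ratio of classes does not depend on the depth. There were 264, 226 and 250 H/ACA counts per 100 C/D counts in the WT mice, and 665, 750 and 692 in the LKO mice. The mean was 247 ± 19.2 in WT and 702 ± 43.4 in LKO (SD, n = 3), a 2.85-fold difference with no overlap. The H/ACA class leaned on few rows. *Snora73a* and *Snora73b* together gave 71.4% to 75.5% of H/ACA counts in WT and 83.8% to 87.0% in LKO. With the row of most counts left out of each class, *Snora73a* and *Snord17*, the difference was 4.15-fold. That step kept *Snora73b*, the other copy, and removed a C/D row that was itself higher in LKO mice. The ratio without both *Snora73* copies was not tested.

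**Figure D1:**
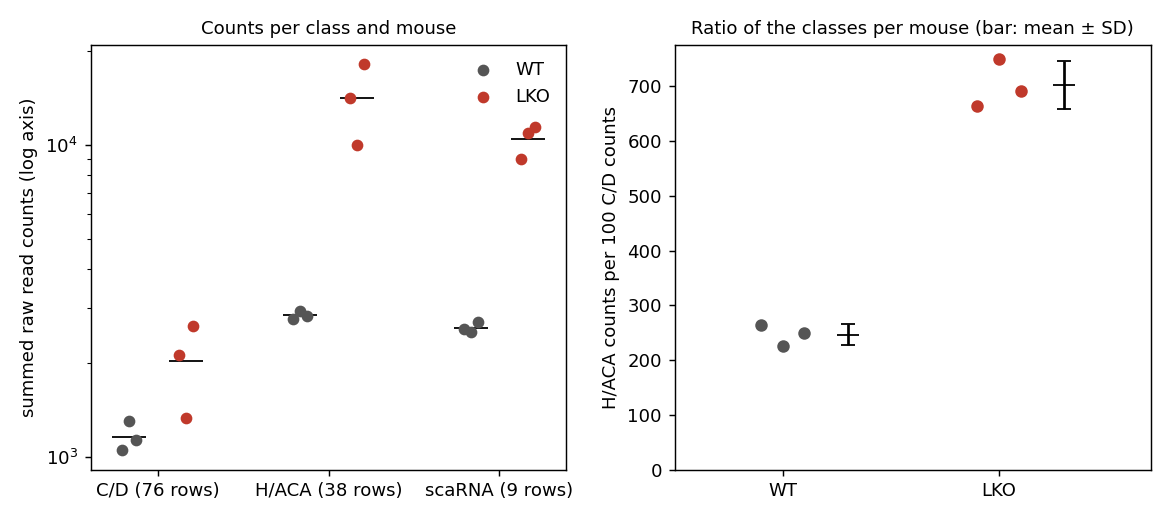
Left, summed raw read counts (log axis) of the C/D, H/ACA and scaRNA rows, 1 point per mouse with a line at the mean of 3 mice. Right, H/ACA counts per 100 C/D counts in each mouse with mean ± SD, where the WT mice lie between 226 and 264 and the LKO mice between 665 and 750.

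Among H/ACA RNAs, *Snora73a* and *Snora73b*, the 2 copies of U17, an RNA of pre-rRNA processing, had the most counts. *Snora73a* had 1289, 1282 and 1402 counts in WT livers and 7259, 5318 and 9437 in LKO livers, which after TMM scaling was 8.98-fold higher (log2 fold change 3.17 ± 0.18 SE, adjusted p = 1.0e-04). *Snora73b* had 732, 820 and 740 counts in WT and 4595, 3290 and 6401 in LKO, 10.1-fold higher (3.33 ± 0.20, adjusted p = 1.2e-04). Neither overlapped between genotypes, and the LKO mice kept one order in both, with mouse 3 the highest and mouse 2 the lowest count. The ratio of the copies overlapped, with 156 to 189 *Snora73a* counts per 100 *Snora73b* counts in WT and 147 to 162 in LKO.

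*Snora74a*, the U19 RNA, had 165, 114 and 120 counts in WT and 1232, 608 and 1202 in LKO (log2 fold change 3.63 ± 0.23, adjusted p = 1.7e-04). *Snora68* had 13, 33 and 35 counts in WT and 238, 127 and 212 in LKO (3.50 ± 0.42, adjusted p = 5.7e-04). *Snora7a* had 24, 33 and 51 counts in WT and 185, 138 and 199 in LKO (2.96 ± 0.34, adjusted p = 5.0e-04). These 3 were 12.4-fold, 11.3-fold and 7.81-fold higher, with no overlap. *Snora78* had 35, 57 and 55 counts in WT and 144, 85 and 173 in LKO (2.12 ± 0.33, adjusted p = 0.0017), again without overlap, and its row overlaps that of its host gene *Snhg9*.

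Other H/ACA RNAs of like abundance did not pass the test. *Snora81* had 51, 71 and 60 counts in WT and 61, 41 and 88 in LKO (log2 fold change 0.74 ± 0.32, adjusted p = 0.10), and *Snora28* had 80, 71 and 58 in WT and 50, 26 and 54 in LKO (0.01 ± 0.31, adjusted p = 0.98). The raw counts of both are no higher in LKO mouse 2 than in any WT mouse, and the direction of both turned when total counts replaced TMM (−0.11 for *Snora81* and −0.83 for *Snora28*). The other 4 H/ACA RNAs called higher were named after their values were seen and had few counts. *Snora21*, *Snora44* and *Snora30* had log2 fold changes of 2.00, 1.85 and 1.43 (adjusted p = 0.0096, 0.0086 and 0.018), and *Snora30* was not called without WT mouse 1 (adjusted p = 0.063) or WT mouse 2 (0.05). *Snora26* had 1 count in each WT mouse and 30, 6 and 24 in the LKO mice (adjusted p = 0.0013), so that its fold rests on counts of 1.

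Among C/D RNAs, the abundant RNAs of over 100 bases were higher, and of the 8 with the most counts the U14 copies were those with LKO CPM below WT CPM without overlap. *Snord17*, which guides methylation of large-subunit rRNA, had 169, 206 and 162 counts in WT and 997, 492 and 1502 in LKO (log2 fold change 3.14 ± 0.32, 8.81-fold, adjusted p = 3.6e-04). *Snord15b* had 18, 26 and 32 counts in WT and 193, 128 and 409 in LKO (3.91 ± 0.44, 15.1-fold, adjusted p = 4.7e-04). *Snord22*, which acts in small-subunit rRNA processing, had 27, 50 and 32 counts in WT and 207, 146 and 177 in LKO (2.98 ± 0.32, 7.90-fold, adjusted p = 4.3e-04). None of the 3 overlapped between genotypes, and LKO mouse 2 had the lowest LKO count of each.

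*Snord118* (U8, needed for large-subunit rRNA processing), *Snord13* (U13) and *Snord15a* were also called higher and were named after their values were seen. *Snord118* had 2, 8 and 0 counts in WT and 70, 65 and 78 in LKO (adjusted p = 0.0011). *Snord13* had 4, 18 and 10 counts in WT and 38, 22 and 53 in LKO (log2 fold change 2.47 ± 0.56, adjusted p = 0.0091), and *Snord15a* 3, 10 and 4 in WT and 33, 19 and 42 in LKO (3.11 ± 0.54, adjusted p = 0.0027). All 3 had their highest WT count in WT mouse 2, without which the log2 fold change was 6.68 for *Snord118*, 3.08 for *Snord13* and 3.80 for *Snord15a*. There was no overlap in any of them. *Snord15b* exceeded its neighbour *Snord15a* in every mouse, by 260 to 800 counts per 100 in WT and 585 to 974 in LKO, ranges that overlap.

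*Snord104* had 67, 54 and 54 counts in WT and 100, 70 and 46 in LKO (log2 fold change 1.05 ± 0.36, adjusted p = 0.045). Its CPM did not overlap but its raw counts did, and the call was lost without WT mouse 1, 2 or 3 or LKO mouse 1 or 2 (adjusted p = 0.092 to 0.14). *Snord96a* had 50, 57 and 39 counts in WT and 35, 29 and 21 in LKO, with a log2 fold change of −0.04 ± 0.37 (adjusted p = 0.94).

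The 3 U14 copies of *Hspa8*, which act in small-subunit rRNA processing, had lower counts in every LKO mouse. *Snord14d* had 121, 135 and 180 counts in WT and 50, 25 and 10 in LKO (log2 fold change −1.63 ± 0.52, 3.10-fold lower, adjusted p = 0.035). *Snord14e* had 134, 111 and 160 counts in WT and 59, 33 and 12 in LKO (−1.22 ± 0.51, adjusted p = 0.088), and *Snord14c* 121, 75 and 117 in WT and 39, 32 and 12 in LKO (−1.15 ± 0.46, adjusted p = 0.081). LKO mouse 3 had the lowest count of all 3, and the genotypes did not overlap in any. Of these only *Snord14d* was called, and it was not called without WT mouse 1 (adjusted p = 0.052), WT mouse 2 (0.075), WT mouse 3 (0.11) or LKO mouse 2 (0.093), and without LKO mouse 1 its log2 fold change was −2.23. Since *Snord14c* and *Snord14d* are nearly identical, their separate values are uncertain.

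Summed, the U14 copies had 376, 321 and 457 counts in WT and 148, 90 and 34 in LKO, or 24.7% to 40.3% of C/D counts in WT and 1.29% to 6.95% in LKO. Without them the C/D rows summed to 673, 979 and 677 counts in WT and 1981, 1240 and 2597 in LKO. Set against the counts of *Hspa8* itself the genotypes overlapped, with 2.80, 3.03 and 4.83 U14 counts per 1000 *Hspa8* counts in WT and 3.92, 2.13 and 0.433 in LKO. *Hspa8*, which encodes a constitutive chaperone, was not called (log2 fold change −0.36, adjusted p = 0.32).

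Of the 9 scaRNAs, the 4 most abundant were all higher in LKO mice. *Scarna13* had 1604, 1699 and 1849 counts in WT and 5353, 7945 and 6995 in LKO (log2 fold change 2.73 ± 0.25, 6.64-fold, adjusted p = 3.0e-04). *Scarna6* had 483, 412 and 456 counts in WT and 2185, 1798 and 2789 in LKO (3.04 ± 0.15, 8.21-fold, adjusted p = 7.4e-05). *Scarna10* had 230, 207 and 182 counts in WT and 1160, 895 and 1278 in LKO (3.14 ± 0.15, 8.84-fold, adjusted p = 7.4e-05). The genotypes did not overlap, and *Scarna13* was highest in LKO mouse 2, the mouse with the lowest LKO counts of *Scarna6* and *Scarna10*.

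*Scarna2* changed less, with 189, 136 and 141 counts in WT and 223, 189 and 257 in LKO (log2 fold change 1.25 ± 0.20, 2.38-fold, adjusted p = 0.0018), and one LKO mouse shared the count of the highest WT mouse. The RefSeq rows of *Scarna10* and *Scarna2* span only 71 and 61 bases of RNAs that GENCODE gives as 325 and 414 bases, and 31 members had a RefSeq span under 80% of the GENCODE length. Named after its values were seen, *Scarna3a* had 17, 21 and 37 counts in WT and 48, 63 and 71 in LKO (2.00 ± 0.42, adjusted p = 0.0062). *Scarna9*, also named after its values were seen, had 23, 19 and 14 counts in WT and 3, 2 and 6 in LKO (−1.62 ± 0.48, adjusted p = 0.028). Its groups did not overlap, but it was not called without WT mouse 1 (adjusted p = 0.078), WT mouse 2 (0.069), LKO mouse 1 (0.085) or LKO mouse 2 (0.076). The number of members called lower, 2 with all mice, was therefore 0 without any of WT mouse 1, WT mouse 2 and LKO mouse 2.

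**Figure D2:**
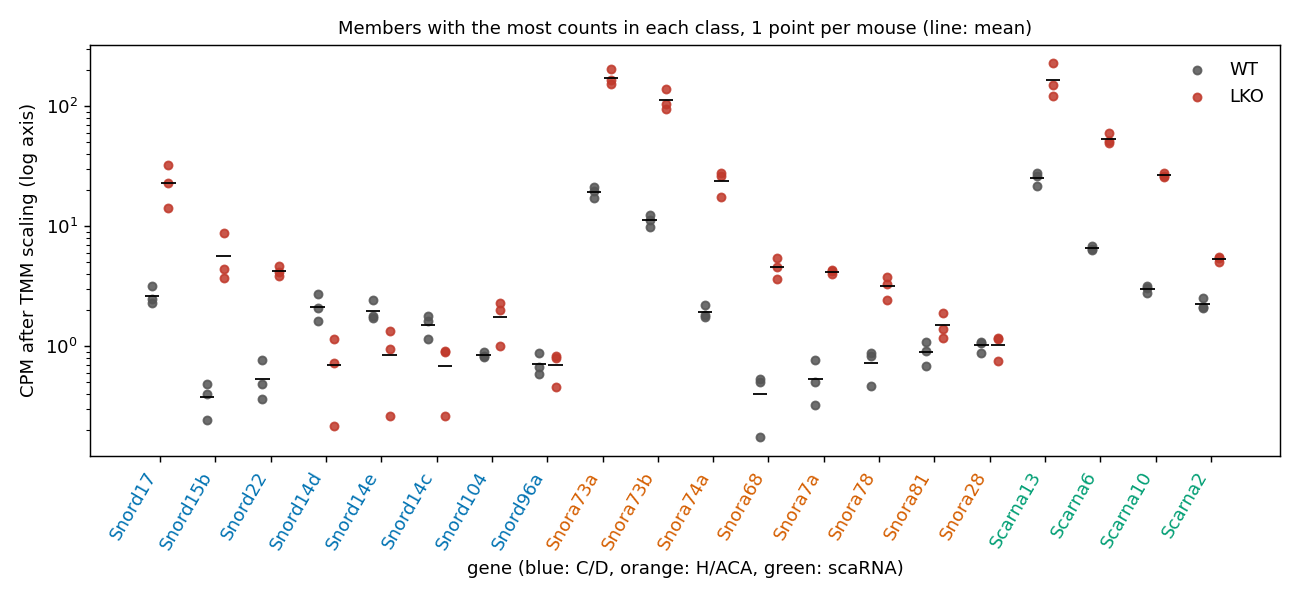
CPM after TMM scaling (log axis) of the 8 C/D, 8 H/ACA and 4 scaRNA rows with the most counts, 1 point per mouse and a line at the mean of 3 mice. The LKO points lie above the WT points for the abundant H/ACA RNAs and scaRNAs, below them for the 3 *Snord14* copies, and among them for *Snord96a* and *Snora28*.

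Most members called higher were of at least 100 bases. The bands of annotated RNA length used here were chosen after the values were seen. Of 58 tested members under 100 bases, 1 was higher (1.72%) and 2 were lower (3.45%), with a median log2 fold change of 0.00, or −0.08 without the 4 rows that have a count of 1 in every mouse. Of 45 members of 100 to under 150 bases, 13 were higher (28.9%) and 0 lower (median 0.64, or 0.56 without 3 such rows). Of 10 members of at least 150 bases, 8 were higher and 0 lower (median 3.09). All 10 had LKO CPM above WT CPM without overlap. Over all genes tested, 19.6% were higher, 20.5% were lower and 26.1% had LKO CPM above WT CPM without overlap. Since the bands were chosen from the same values, their counts are a description. Over the 52 members with a mean of at least 10 counts, length and log2 fold change had a Pearson correlation of 0.44 and a Spearman correlation of 0.59, as a description over RNAs that share libraries and, in part, host genes. As given above, that mean depends in part on the outcome, so the correlations are not read as a result.

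Length and class go together, since C/D RNAs had a median length of 81.0 bases and H/ACA RNAs of 132. In the band of 100 to under 150 bases, which holds both, 5 of 11 C/D RNAs were higher (45.5%, median log2 fold change 0.96). Of the H/ACA RNAs there, 7 of 31 were higher (22.6%, against 19.6% of all genes tested), with a median of 0.59, or 0.53 without the 3 rows with a count of 1 in every mouse. The H/ACA set has no member under 100 bases, where 1 of 56 C/D RNAs was higher (1.79%). Among scaRNAs, *Scarna9* at 70 bases was lower, *Scarna17* at 79 bases was not called (log2 fold change 0.62, adjusted p = 0.3), and the 4 RNAs of at least 265 bases were all higher. Of those 4, *Scarna10* and *Scarna2* were counted over rows of only 71 and 61 bases. When each library's counts were corrected for a trend with gene length, the median of the members fell to 0.07, with 20 higher and 7 lower. Both class medians fell, to −0.24 for C/D and 0.27 for H/ACA members, from 0.13 and 0.64 without the correction. The part of RNA length in the difference between classes was not tested beyond this.

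**Figure D3:**
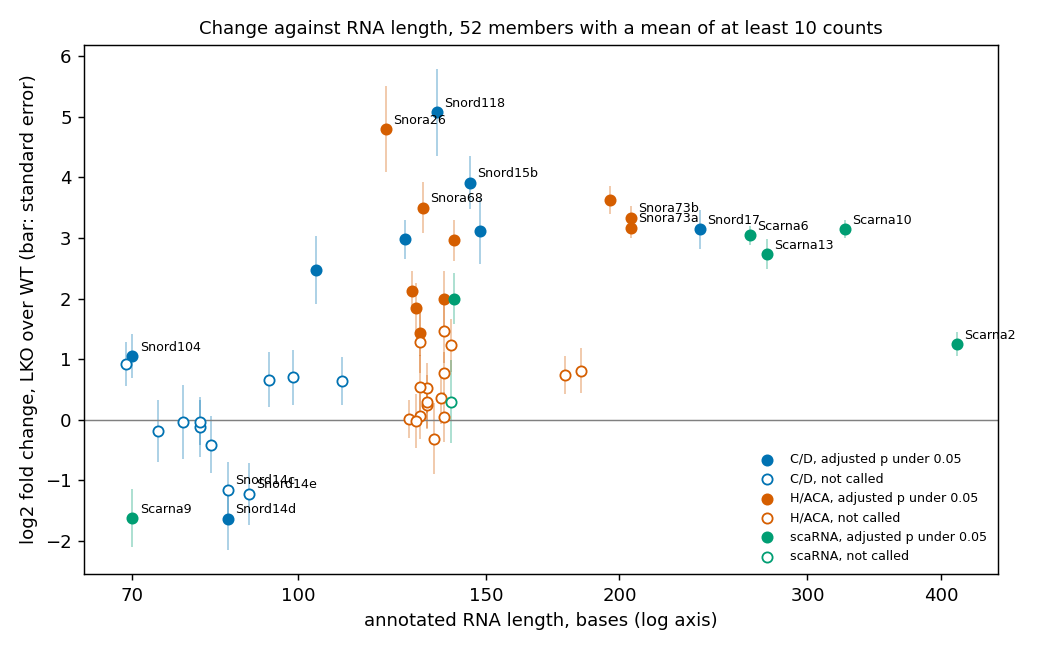
Log2 fold change (LKO over WT) with its standard error against annotated RNA length (log axis) for the 52 members with a mean of at least 10 counts, coloured by class and filled where the adjusted p was under 0.05. Points under 100 bases lie between −1.63 and 1.05, those from 100 to under 150 bases spread up to 5.07, and those of at least 150 bases lie between 0.74 and 3.63. Lengths are those of GENCODE, whereas the counted rows of *Scarna10* and *Scarna2* span 71 and 61 bases.

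Several abundant RNAs outside the set that also lack a poly(A) tail were higher in the same mice. They were picked after their values were seen. The spliceosomal *Rnu1a1* had 95, 113 and 143 counts in WT and 1303, 343 and 1350 in LKO (log2 fold change 3.73, adjusted p = 5.4e-04). *Rn7sk*, which controls transcription elongation, and *Rpph1*, the RNA of RNase P, had log2 fold changes of 2.99 and 2.12 (adjusted p = 4.2e-04 and 5.0e-04). *Rn7sk* with *Rn7s1* and *Rn7s2*, the signal recognition particle RNAs, took 5.05% to 5.84% of all counts in WT and 13.8% to 18.2% in LKO libraries, and the part of this shift in the members' values was not tested. Scaled by total counts, the median of all genes tested moved from −0.04 to −0.90 and that of the members to −0.34, with 17 of the 22 members still higher and 14 lower (all genes 1167 higher and 9575 lower).

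Host genes were sought to ask whether a snoRNA moved with the transcript that carries it. A host gene on the same strand was found for 110 of the 123 members. By GENCODE gene type, 88 lay in protein-coding and 22 in long non-coding genes. The latter include *Cct6a*, a chaperonin gene that is typed as a processed transcript. Within a host, 53 tested members lay in an intron of every host transcript, with 10 higher and 1 lower, and 48 overlapped an exon of at least 1 host transcript, with 7 higher and 1 lower. With no host found, 5 of 12 were higher and 0 lower. The shares higher were, in this order, 18.9%, 14.6% and 41.7%, against 19.6% of all genes tested. Reads of a member that overlaps an exon cannot be told apart from reads of its host.

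The hosts themselves were 82 genes, of which 81 were tested, with 36 higher and 11 lower and a median log2 fold change of 0.29, beside 19.6% higher, 20.5% lower and a median of −0.04 over all genes tested. Ribosomal protein genes were 24 of them, with 17 higher and 0 lower (median 0.82). The 16 hosts typed as long non-coding, *Cct6a* among them, had 9 higher and 0 lower (median 1.00). The change of a member had little relation to that of its host over the 44 members with a mean of at least 10 counts and a tested host, with a Pearson correlation of 0.07 and a Spearman correlation of 0.11 as a description. These members passed the same mean filter, which depends in part on the outcome. The log2 fold change of the member minus that of its host had a median of 0.26 over these 44. Of them, 14 were more than 1 above their host, 23 within 1 and 7 more than 1 below. Over all 101 tested members with a tested host, without the mean filter, the median was −0.09. There 19 were more than 1 above their host, 56 within 1 and 26 more than 1 below.

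Of the 17 members called higher that have a tested host, 13 were more than 1 log2 unit above it. The hosts of 10 were called higher, of 4 lower and of 3 neither, beside 36 higher and 11 lower of all 81 tested hosts. These 17 were picked by their own rise, so their place above the host is not read as a result. Over all 101 tested pairs, 19 members were more than 1 above their host and 26 more than 1 below. *Snora73a* and *Snora73b* lie in introns of *Rcc1*, a nucleotide exchange factor of Ran, whose 8 transcripts include none with an exon there, and also within *Snhg3*. *Rcc1* was lower (303, 240 and 251 counts in WT, 81, 98 and 102 in LKO, log2 fold change −0.75, adjusted p = 0.032) and *Snhg3* was higher (353, 303 and 328 in WT, 370, 374 and 719 in LKO, 1.28, adjusted p = 0.0037). Per 1000 *Snhg3* counts there were 3650, 4230 and 4270 *Snora73a* counts in WT and 19600, 14200 and 13100 in LKO, and the ratio did not overlap against either host. The call of *Rcc1* was lost without WT mouse 1, 2 or 3 or without LKO mouse 1 or 3 (adjusted p up to 0.09).

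*Scarna10* lies in *Ncapd2*, a condensin subunit, which was lower (230, 193 and 243 counts in WT, 49, 27 and 39 in LKO, log2 fold change −1.82, adjusted p = 0.0012), the widest gap between a called member and its host at 4.97 log2 units. *Scarna13* lies in *Snhg10* (log2 fold change −0.18, adjusted p = 0.80) and *Scarna6* in the autophagy gene *Atg16l1* (0.23, adjusted p = 0.28), neither of which was called. *Snord17* had 36.4, 50.5 and 41.8 counts per 1000 counts of *Snx5* in WT and 237, 111 and 290 in LKO, while *Snx5*, a sorting nexin, had a log2 fold change of 0.87 (adjusted p = 0.0028). *Snora7a* lies in *Rpl32*, a ribosomal protein gene with a log2 fold change of 0.50 (adjusted p = 0.021). The direction of *Rpl32* turned when total counts were used (−0.37), and it was not called without WT mouse 2 or 3 (adjusted p up to 0.11).

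Other hosts were themselves called higher. *Snhg1* (log2 fold change 2.05, adjusted p = 0.0088, and 1.28 without LKO mouse 3, which had 2632 counts against 596 and 807 in the other LKO mice) carries *Snord22*, whose counts per 1000 host counts overlapped at 48.0, 89.6 and 74.1 in WT and 347, 181 and 67.2 in LKO. *Snhg9* (1.69, adjusted p = 0.020) had 4 to 14 counts, carries *Snora78* and was not called without WT mouse 1 or 3 (up to 0.067). *Rps3* (1.83, adjusted p = 0.0014) carries both *Snord15* RNAs, of which *Snord15b* had 1.36, 2.33 and 3.00 counts per 1000 host counts in WT and 8.70, 4.19 and 20.4 in LKO, without overlap. In others the host was higher and the member was not called, as for *Snora81* in *Eif4a2* (host 1.65, adjusted p = 3.9e-04) and *Snora28* in *Eif5* (host 0.95, adjusted p = 0.012), both of them translation factor genes. *Rack1*, the host of *Snord96a*, was not called (0.40, adjusted p = 0.10), and its direction turned with total counts (−0.48).

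**Figure D4:**
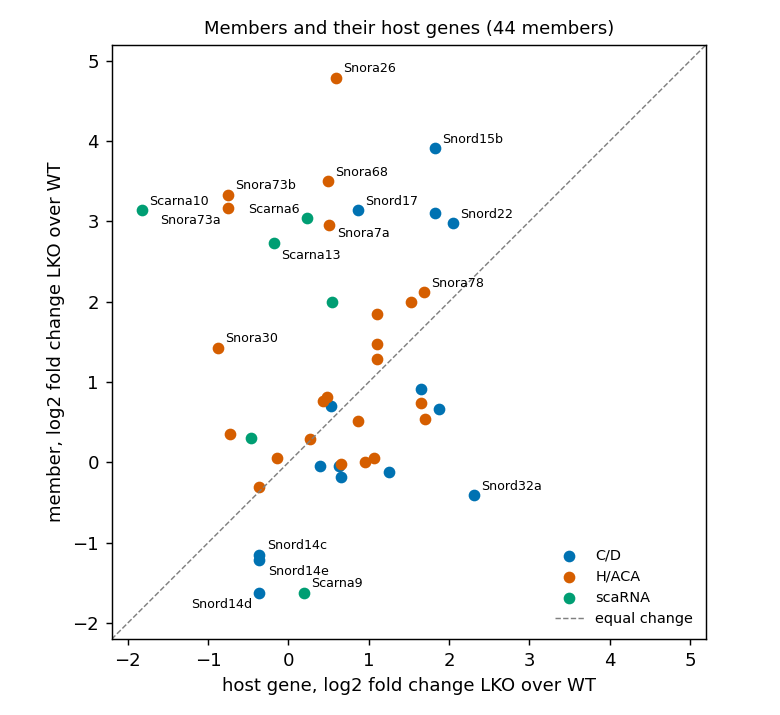
Log2 fold change (LKO over WT) of 44 members with a mean of at least 10 counts against that of their host gene, coloured by class, with a dashed line where both are equal. *Scarna10*, *Snora73a* and *Snora73b* lie far above the line with hosts below 0, the *Snord14* copies lie below it, and the points show little relation (Pearson correlation 0.07).

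Of 40 listed genes of the snoRNA protein particles 39 were in the table, 10 were higher and 10 lower, and the median log2 fold change was 0.01. These shares lie near those of all genes tested (19.6% higher and 20.5% lower) and are no result about the particles. Among the C/D core, *Nop58* (1.00, adjusted p = 0.0088) and *Snu13* (0.71, adjusted p = 0.0060) were higher, *Nop56* was lower (−0.56, adjusted p = 0.040) and *Fbl*, the methyltransferase, was not called (−0.42, adjusted p = 0.15). Among the H/ACA core, *Nop10* was higher (1.58, adjusted p = 4.9e-04), while *Dkc1*, the pseudouridine synthase, *Nhp2* and *Gar1* were not called (0.41, 0.16 and −0.09, adjusted p = 0.07, 0.54 and 0.85). The values of *Snu13*, *Dkc1* and *Nhp2* turned negative with total counts (−0.17, −0.46 and −0.73), and *Nop56* was not called without WT mouse 1, WT mouse 2 or LKO mouse 1 (adjusted p up to 0.12).

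Of the 9 assembly factors 4 were higher and 3 lower. The zinc finger proteins *Znhit3* and *Znhit6* and the assembly factors *Nufip1* and *Naf1* were higher (log2 fold changes 2.23, 0.75, 1.02 and 1.39), and *Ruvbl1*, *Ruvbl2* and *Pih1d1*, of the chaperone complex that builds C/D particles, were lower (−0.89, −0.65 and −0.70). Of 7 genes of the Cajal body and of trafficking, *Phax*, a nuclear export adaptor for capped small RNAs, was higher (1.02), and *Nolc1* and *Wrap53*, which bind snoRNA and scaRNA particles, were lower (−1.64 and −0.69). Of 9 genes of trimming and decay, *Mtrex* was higher (0.99) and *Tent4b* and *Exosc10* lower (−0.56 and −0.60), and of 6 U3 particle genes *Mphosph10* was higher (1.81) and *Imp4* and *Utp20* lower (−0.73 and −0.51). These genes other than the core proteins were named after their values were seen, and only called ones are named. Not called were 2 assembly, 4 Cajal body and trafficking, 6 trimming and decay and 3 U3 particle genes. Over all genes tested 19.6% were higher and 20.5% lower, and no count of these short lists is read as a result.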

How the data were processed

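Liver RNA of 3 WT and 3 LKO mice was sequenced with 1 library per mouse, and the labels' genotype set the groups. The authors made the values with StringTie on mm10 and deposited them as a single table, in which each of 45777 genes has a raw read count, an FPKM and a TPM for every mouse. The deposited FPKM are scaled to gene length and to the fragments sequenced, and the deposited TPM have the same sum in each mouse. The submitters' processing notes list bcl2fastq 2.20.0, FastQC 0.11.7, HISAT2 2.1.0, Bowtie2 2.3.4.1 and StringTie 2.1.3b. Whether counting used strand is not given in the sources used here. The deposited read counts are coverage estimates written as whole numbers. Columns of per-sample values that were not used numbered 0.

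Genes with more than 1 zero count were left out, counts were scaled by TMM, and genotypes were compared over all 18636 remaining genes with edgeR 4.0.16 (quasi-likelihood test, Benjamini-Hochberg adjustment, adjusted p under 0.05). On simulated counts for these genes, with 200 changed by 2 on the log2 scale, 167 (83.5%) were called with 22 false calls. An exact permutation test of 3 against 3 mice cannot go below p = 0.1, and such a two-sided test of *Pak4* CPM gave p = 0.2. Strand, hosts, lengths and sequences came from GENCODE M21 (all 123 members matched), because the RefSeq table of GRCm38.p6, which 45679 genes matched, has no strand. A host was the longest gene on the same strand whose span holds the member.

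Named were the 8 *Snord*, 8 *Snora* and 4 *Scarna* rows with the highest mean count, the 4 highest and the 4 lowest changes among called members of at least 1 mean CPM, their hosts, the core proteins and *Pak4*, with the *Snord113* to *Snord116* clusters by family. The values of 1 host gene are not reported here. The members and lists were chosen with earlier results of these data known. Alternatives, given in the closing section, were other tests (edgeR's exactTest, DESeq2 1.42.0, limma 3.58.1 on log2(TPM + 1)), scalings and count filters, a length correction, the replicate number as a block, and each mouse left out in turn. Counting error and the spread between mice are both within the standard errors.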

Additional observations from a re-analysis of the deposited data

How the results depend on the processing

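The 22 members called higher numbered 17 to 24 under the other count fits, those that leave out a mouse included, and 14 with limma on log2(TPM + 1), which also gave 6 H/ACA and 3 scaRNA members higher. The 2 called lower became 4 with edgeR's exactTest, 14 with total counts, 1 with every gene that has any count, 0 with the replicate block, 7 with the length correction, 49 with limma, and 0 to 2 when single mice were left out. The 20 called snoRNA particle genes became 13 with the replicate block and length correction together and 33 with limma. The class ratio of 2.85 was 4.15 without the top row of each class, a step that kept *Snora73b*, and 3.92 in summed TPM. The median of member minus host over all tested pairs was −0.09 and turned to 0.44 on log2(TPM + 1). *Pak4* was called with total counts (−1.54), limma (−1.19) and without LKO mouse 3 (−1.08).

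Directions turned for these values. With total counts they were *Snora81* −0.11, *Snora28* −0.83, *Snx5* −0.01, *Rack1* −0.48, *Rpl32* −0.37, *Atg16l1* −0.63, *Snu13* −0.17, *Dkc1* −0.46 and *Nhp2* −0.73. With limma they were *Snord104* −0.55, *Snora81* −0.72, *Snora28* −1.41, *Scarna2* −0.29, *Snora30* −0.08, *Snx5* −0.67, *Rack1* −1.15, *Snhg3* −0.30, *Rpl32* −1.04, *Eif5* −0.63, *Atg16l1* −1.24, *Nop58* −0.53, *Snu13* −0.80, *Dkc1* −0.96 and *Nhp2* −1.32, with the all-gene median at −0.79. With the length correction they were *Snora28* −0.46, *Rpl32* −0.23 and *Nhp2* −0.22, and with the block as well −0.49, −0.23 and −0.22. *Snora28* was −0.00 with the replicate block or any count, and −0.10 to 0.19 with single mice left out (below 0 without WT mouse 3, LKO mouse 1 or LKO mouse 3). *Snord96a* was 0.04 with upper-quartile scaling, 0.02 with TMM on protein-coding genes, and −0.19 to 0.19 with single mice left out (above 0 without WT mouse 2 or LKO mouse 3). Ranges of the same kind were −0.54 to 0.20 for *Snhg10* (above 0 without WT mouse 3 or LKO mouse 3), −0.24 to 0.13 for *Gar1* (above 0 without WT mouse 2 or LKO mouse 1) and −0.02 to 0.30 for *Nhp2* (below 0 without LKO mouse 2). The cause was not tested.

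Same-numbered mice did not deviate together (correlations 0.051, −0.025 and −0.076), so the replicate block, with 21 members higher and 0 lower, shows no pairing. Depth limits the 71 members with a mean under 10 counts, of which edgeR called 0 of 61 tested and limma on log2(TPM + 1) called 30 lower, although some other genes with such a mean were called.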

Other observations

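Other guide RNA rows of the table, which carry provisional names, were counted in the same way. Of 1249 such rows 186 were tested, with 37 higher (19.9%, against 19.6% of all genes tested), 5 lower (2.69%, against 20.5%) and a median log2 fold change of 0.43. The rows described here were chosen after their values were seen. The row described as scaRNA 21 had 2370, 1528 and 1428 counts in WT and 6236, 12828 and 7417 in LKO (log2 fold change 3.13 ± 0.38, adjusted p = 6.3e-04). The row described as scaRNA 7 went the other way, with 5667, 6262 and 3571 counts in WT and 1372, 1065 and 2053 in LKO (−1.09 ± 0.24, adjusted p = 0.0080), and no overlap. Telomerase RNA (*Terc*), which ends in an H/ACA domain, had 69, 45 and 52 counts in WT and 422, 457 and 439 in LKO (3.74 ± 0.24, adjusted p = 1.7e-04). *Rnu3a*, a gene of the C/D RNA U3, had 160, 161 and 206 counts in WT and 951, 339 and 702 in LKO (2.59 ± 0.31, adjusted p = 5.7e-04), and the 4 *Rnu3b* copies, which are nearly identical and can share reads, had log2 fold changes of 4.77 to 5.08. Not every nuclear non-coding RNA was higher, since *Neat1* fell from 189322, 210838 and 176281 counts in WT to 8282, 6321 and 12312 in LKO (−3.73 ± 0.26, adjusted p = 1.9e-04), and *Malat1* was not called (−0.46 ± 0.24, adjusted p = 0.16).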
